A study of Populus ussuriensis with 2 samples.

Results

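Poplar regulators of the cambium and of meristems were followed as 5 loci of the 36385 listed: the receptor kinases PXYa (Potri.003G107600) and PXYb (Potri.001G126100), the class I KNOX genes ARK1 (Potri.011G011100) and ARK2 (Potri.002G113300), and AIL1 (Potri.002G114800). They were chosen by locus ID and not by a rule on measured values, but with earlier results of these data known. All 5 were found, with 6 listed transcripts between them. The names come from outside the deposited files, which pair no ID with a name. The IDs follow the gene models of Populus trichocarpa, whereas the RNA is from Populus ussuriensis.

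The RNA came from the lowest 0.5 cm of stem cuttings taken from 2-week-old plantlets grown in vitro on solid medium with sucrose, at day 14 after cutting. The series concerns adventitious rooting, that is, roots forming on a cut stem. Its 2 libraries are both of day 14, so no other time can be compared. Both libraries carry the same labels and were therefore taken here as replicate 1 and replicate 2 of 1 group (n = 2). No genotype, treatment or control is named, and the letter C in the titles of both libraries is not explained. Nothing says that they came from separate cuttings, so the spread between them may be technical. Levels are FPKM (fragments for each kilobase of a transcript, out of 1000000 that mapped), summed per locus. The values imply totals of about 10957286 reads for replicate 1 and 12513099 for replicate 2 (recovered as described with the reads of each gene). Before rounding, neither total was a whole number, for an unknown reason.

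The vascular cambium is the sheet of stem cells that makes wood inward and phloem outward. In Arabidopsis, PXY sits on cambial cells and binds the peptide TDIF, which is released from phloem. This signal keeps cambial cells dividing, orients their divisions and holds back xylem formation. Class I KNOX proteins are homeodomain transcription factors that keep meristem cells undifferentiated. ARK1 is the poplar counterpart of SHOOT MERISTEMLESS and ARK2 that of BREVIPEDICELLUS, and both act in the cambium of poplar stems. AIL1 encodes an AP2-type transcription factor of the AINTEGUMENTA-like group, known in poplar for a part in adventitious root primordia and in the growth of shoot meristems.

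All 5 genes were present at the stem base in both libraries. ARK2 was by far the highest of them, PXYa and PXYb followed at nearly equal levels, ARK1 came next, and AIL1 was the lowest. Detection, at 1 FPKM or more in both libraries, held for 5 of the 5 loci, against 56.5% of all listed loci. As transcripts, 5 of 6 were detected, against 39.7% of all listed transcripts. The median of the 5 mean levels was 51.3 FPKM. Over all loci averaging 1 FPKM or more, called expressed loci from here on, it was 10.2 FPKM. In whole stem tissue, a low level from few cells and a low level per cell cannot be told apart.

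**Figure D1:**
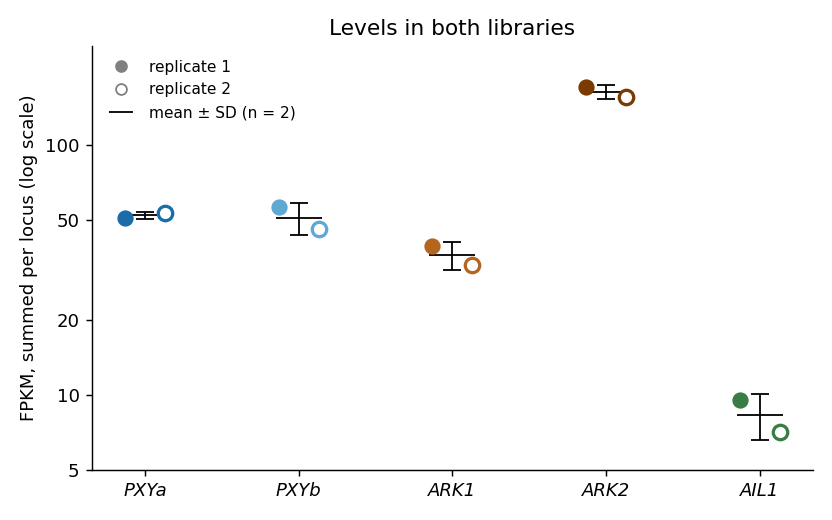
FPKM summed per locus (y axis, log scale) for the 5 genes (x axis), with filled points for replicate 1, open points for replicate 2, and a bar for the mean with its SD (n = 2). ARK2 lies between 156.5 and 171.1 FPKM, the PXY copies between 45.9 and 56.6, ARK1 between 33.0 and 39.4, and AIL1 between 7.10 and 9.54.

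The receptor genes were strongly represented. PXYa had 51.3 FPKM in replicate 1 and 53.7 FPKM in replicate 2, a mean of 52.5 ± 1.69 FPKM (SD, n = 2). Its single listed transcript, Potri.003G107600.1, held the whole of this level. PXYa stood above 94.8% of all listed loci, at rank 1898 of 36385.

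PXYb, the second copy of the same receptor, had 56.6 FPKM in replicate 1 and 45.9 FPKM in replicate 2, a mean of 51.3 ± 7.58 FPKM (SD, n = 2). This also came from 1 listed transcript, Potri.001G126100.1. PXYb stood above 94.6% of all listed loci, at rank 1957. The values of PXYa lay inside the range of PXYb, so the copies could not be ordered.

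Which PXY copy was the higher one differed between the libraries. PXYa stood at 0.905 times the level of PXYb in replicate 1 and at 1.17 times in replicate 2, a mean ratio of 1.04 ± 0.186 (SD, n = 2). PXYa thus made up 47.5% of the PXY level in replicate 1 and 53.9% in replicate 2. Together the copies had 107.9 FPKM in replicate 1 and 99.6 FPKM in replicate 2, a mean of 103.7 ± 5.89 FPKM (SD, n = 2). How the authors' counting treated reads that match both copies is not given in the sources used here, and the level of each copy is uncertain to that extent.

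The KNOX pair was led by ARK2. ARK2 had 171.1 FPKM in replicate 1 and 156.5 FPKM in replicate 2, a mean of 163.8 ± 10.3 FPKM (SD, n = 2). It stood above 98.9% of all listed loci, at rank 414, and at 16.0 times the median of expressed loci. Both libraries placed it near the top of the list, at rank 407 in replicate 1 and 434 in replicate 2.

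ARK2 was the one gene of the 5 with a second listed transcript. Potri.002G113300.1 held 100% of its level in each library, and Potri.002G113300.2 was listed at 0 in both. A partner listed at 0 is common in these files. Of the 4918 loci with 2 listed transcripts and at least 1 FPKM in both libraries, 1938 (39.4%) had a transcript listed at 0 in both. How the authors' counting divided reads between transcripts of a locus is not given. A value of 0 therefore does not show that a transcript was absent.

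ARK1 had 39.4 FPKM in replicate 1 and 33.0 FPKM in replicate 2, a mean of 36.2 ± 4.54 FPKM (SD, n = 2), all in Potri.011G011100.1. It stood above 91.7% of all listed loci, at rank 3005. Its higher value was below the lower value of either PXY copy.

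Within each library ARK2 exceeded ARK1 several-fold. ARK2 stood at 4.34 times the level of ARK1 in replicate 1 and at 4.74 times in replicate 2, a mean of 4.54 ± 0.283 (SD, n = 2). ARK2 held 81.3% of the summed KNOX level in replicate 1 and 82.6% in replicate 2. This sum was 210.5 FPKM in replicate 1 and 189.5 FPKM in replicate 2, a mean of 200.0 ± 14.9 FPKM (SD, n = 2).

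AIL1 had 9.54 FPKM in replicate 1 and 7.10 FPKM in replicate 2, a mean of 8.32 ± 1.73 FPKM (SD, n = 2). Its single listed transcript was Potri.002G114800.1. AIL1 was the one gene of the 5 that did not stand above 90% of the list: it stood above 66.8% of all listed loci, at rank 12088. Its mean was 0.813 times the median of expressed loci.

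AIL1 was clearly apart in level from every other gene of the 5 in both libraries. ARK2 stood at 17.9 times the level of AIL1 in replicate 1 and at 22.0 times in replicate 2. For ARK1, the next gene above AIL1, the ratio was 4.13 in replicate 1 and 4.65 in replicate 2, a mean of 4.39 ± 0.366 (SD, n = 2).

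**Figure D2:**
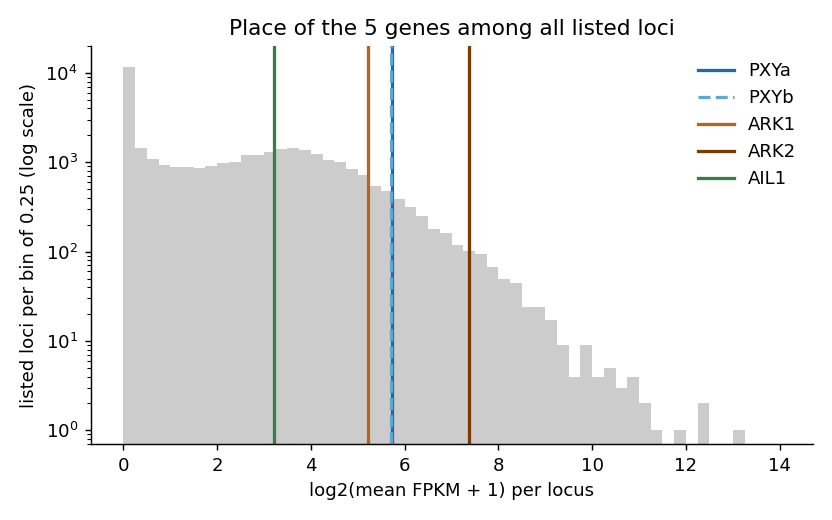
Number of listed loci (y axis, log scale) by log2(mean FPKM + 1) in bins of 0.25 (x axis), with a vertical line at the mean level of each of the 5 genes. The lines of PXYa and PXYb fall on each other at 52.5 and 51.3 FPKM, ARK2 stands furthest right at 163.8 FPKM, and AIL1 falls in the broad middle of the distribution at 8.32 FPKM.

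The order of the 5 genes was the same in both libraries apart from the PXY copies. Of the 10 pairs of genes, 9 had values that did not overlap between the genes, and the exception was PXYa with PXYb. No share over pairs of other loci is given beside this count, so it only describes these genes. The closest pair that did not overlap was PXYb with ARK1, where the lowest PXYb value was 45.9 FPKM and the highest ARK1 value was 39.4 FPKM. PXYb stood at 1.44 times ARK1 in replicate 1 and at 1.39 times in replicate 2, a mean of 1.41 ± 0.032 (SD, n = 2). With 2 libraries no test was made of this order.

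As a share of the level of all 5 genes, ARK2 held 52.2% in replicate 1 and 52.8% in replicate 2. PXYb held 17.3% in replicate 1 and 15.5% in replicate 2, and PXYa 15.6% and 18.1% in the same order. ARK1 held 12.0% in replicate 1 and 11.2% in replicate 2, and AIL1 held 2.91% and 2.40%. Summed, the 5 genes had 312.1 ± 22.5 FPKM (SD, n = 2), or 0.0593% of the sum over all listed transcripts in replicate 1 and 0.0553% of it in replicate 2.

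Having 1 listed transcript set PXYa, PXYb, ARK1 and AIL1 among loci that were mostly low. Loci with 1 listed transcript made up 64.2% of the list, and 39% of them were detected in both libraries. Among these loci, PXYa stood above 97.1%, PXYb above 97.0%, ARK1 above 95.4% and AIL1 above 80.9%.

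None of the 5 genes differed 2-fold between the libraries, and the widest gap was 1.34-fold, for AIL1. Among the 21247 expressed loci, 5.03% were 2-fold apart, as were 13.5% of the 28654 transcripts that averaged 1 FPKM or more. The FPKM ratio of replicate 1 over replicate 2 was 0.955 for PXYa, 1.23 for PXYb, 1.19 for ARK1, 1.09 for ARK2 and 1.34 for AIL1. Thus 4 of the 5 genes were higher in replicate 1, against 53.5% of expressed loci. The median fold between the libraries was 1.19 for the 5 genes and 1.15 over all expressed loci.

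Against the median of loci of like level, AIL1, PXYb and ARK1 were further apart between the libraries, while PXYa and ARK2 were closer. Loci from 5 to under 20 FPKM, the class of AIL1, were apart by a median of 1.14-fold, and 90% of them by less than 1.48-fold. From 20 to under 100 FPKM, the class of PXYa, PXYb and ARK1, the median was 1.11-fold and 90% were within 1.39-fold. For ARK2, in the class from 100 to under 1000 FPKM, the median was 1.12-fold. Of all expressed loci, 77.8% were closer between the libraries than AIL1, 65.3% closer than PXYb, 58.7% closer than ARK1, 33.6% closer than ARK2 and 18.1% closer than PXYa.

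**Figure D3:**
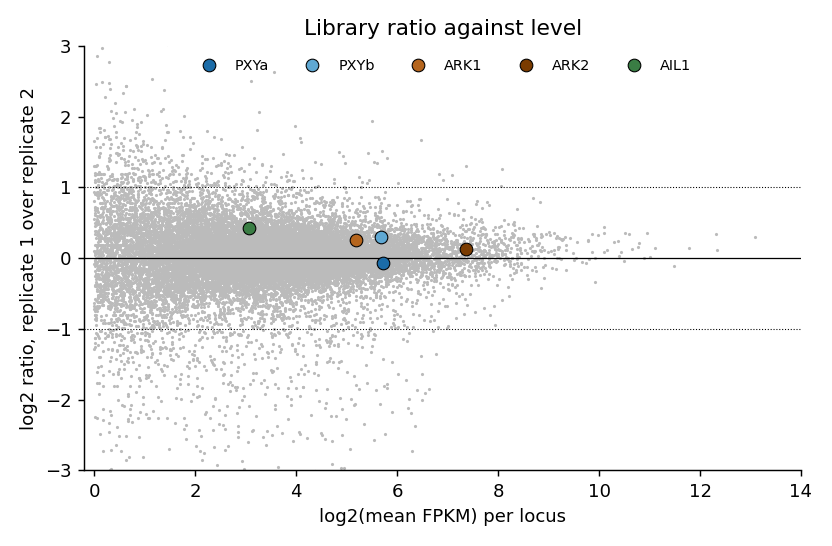
Log2 FPKM ratio of replicate 1 over replicate 2 (y axis) against log2 mean FPKM (x axis) for expressed loci above 0 in both libraries (grey), with the 5 genes in colour and dotted lines at a 2-fold difference; loci beyond 3 on the y axis are not drawn. PXYa lies at -0.07 and the other genes between 0.13 and 0.43, all well inside the dotted lines.

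The reads behind each value were recovered from the FPKM themselves, because the ratio of a gene's values in the 2 libraries is a ratio of whole reads times 1 constant. The recovered numbers are the smallest that fit, and a factor shared by reads and length would raise both. AIL1 rested on 366 reads in replicate 1 and 311 in replicate 2, at a recovered length of 3501 bases. ARK1 rested on 570 and 545 reads in the same order, at 1319 bases. ARK2 rested on 4171 reads in replicate 1 and 4356 in replicate 2, at 2225 bases.

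PXYb rested on 2128 reads in replicate 1 and 1970 in replicate 2, at a recovered length of 3429 bases. PXYa rested on 983 reads in replicate 1 and 1175 in replicate 2, at 1750 bases or a multiple of it. All 5 genes were thus read more deeply than the median of the 7725 expressed loci whose reads were recovered. This median was 115 reads in replicate 1 and 132 in replicate 2. Apart from ARK2, these were loci with 1 listed transcript, not all expressed loci, and their reads too are the smallest that fit. AIL1, although low in FPKM, had many reads because 1 FPKM corresponded to 38.4 reads at its length in replicate 1, against 14.5 reads for ARK1.

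Counting error did not cover the gap between the libraries for 4 of the 5 genes, all higher in replicate 1. The 95% interval of the ratio, from the exact Clopper-Pearson interval of the reads, ran from 1.15 to 1.57 for AIL1, from 1.16 to 1.31 for PXYb, from 1.06 to 1.35 for ARK1 and from 1.05 to 1.14 for ARK2. For PXYa it ran from 0.877 to 1.04 and took in 1. These intervals cover counting error only and compare 2 libraries of the same labels, not conditions.

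Intervals that leave out 1 were common in these libraries. Over the 7725 recovered loci, which apart from ARK2 had 1 listed transcript, 33.5% left out 1 and 18.2% lay above 1. Among the 1881 of them that had 300 reads or more in each library, as all 5 genes did, 51.7% left out 1 and 29.5% lay above 1. The ratio of PXYa to PXYb in replicate 1 was 0.774 times that in replicate 2, with an exact conditional interval from 0.697 to 0.861 for counting error.

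**Figure D4:**
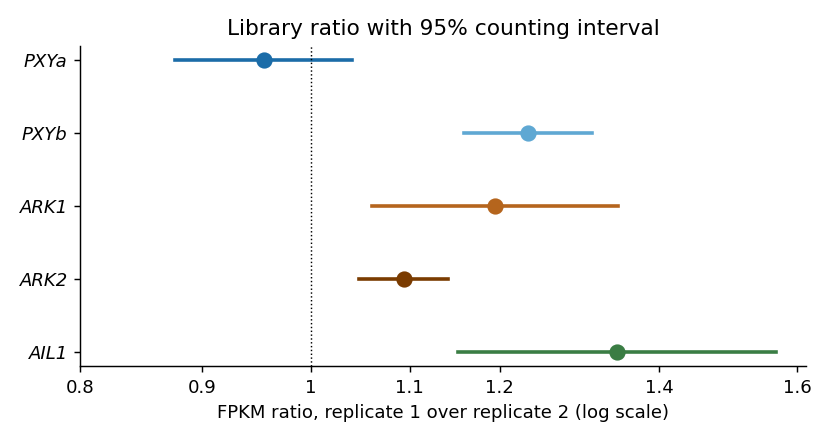
FPKM ratio of replicate 1 over replicate 2 (x axis, log scale) for each of the 5 genes (rows), with the point at the measured ratio and the line spanning the 95% counting interval of the recovered reads. The line of PXYa, from 0.877 to 1.04, crosses the dotted line at 1, while the remaining lines lie to its right.

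In the list of locus IDs, whose order stands in for position, about as many neighbours exceeded each gene as its rank among all loci gives. Of the 10 listed loci on each side, none exceeded PXYb or ARK2, 1 exceeded PXYa with 96.4 FPKM, 1 exceeded ARK1 with 36.6 FPKM against its 36.2, and 5 exceeded AIL1. Over the whole list, 5.21% of loci exceeded PXYa, 5.38% PXYb, 8.26% ARK1, 1.14% ARK2 and 33.2% AIL1. The neighbours thus add nothing to the place of the genes in the list. The median of the 20 neighbours was 1.46 FPKM for PXYa, 0.098 FPKM for PXYb, 1.02 FPKM for ARK1, 3.36 FPKM for ARK2 and 2.93 FPKM for AIL1. Of the 94 different neighbours, 48 were detected in both libraries.

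ARK2 and AIL1 are near each other in this list, with 14 listed loci between them. The loci in between ran from 0 to 34.0 FPKM with a median of 3.36 FPKM, and 8 of the 14 were detected in both libraries. All 14 stood far below ARK2. Several of them, not only the highest at 34.0 FPKM, stood above AIL1. No function is given for these loci, and coordinates were not used here.

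**Figure D5:**
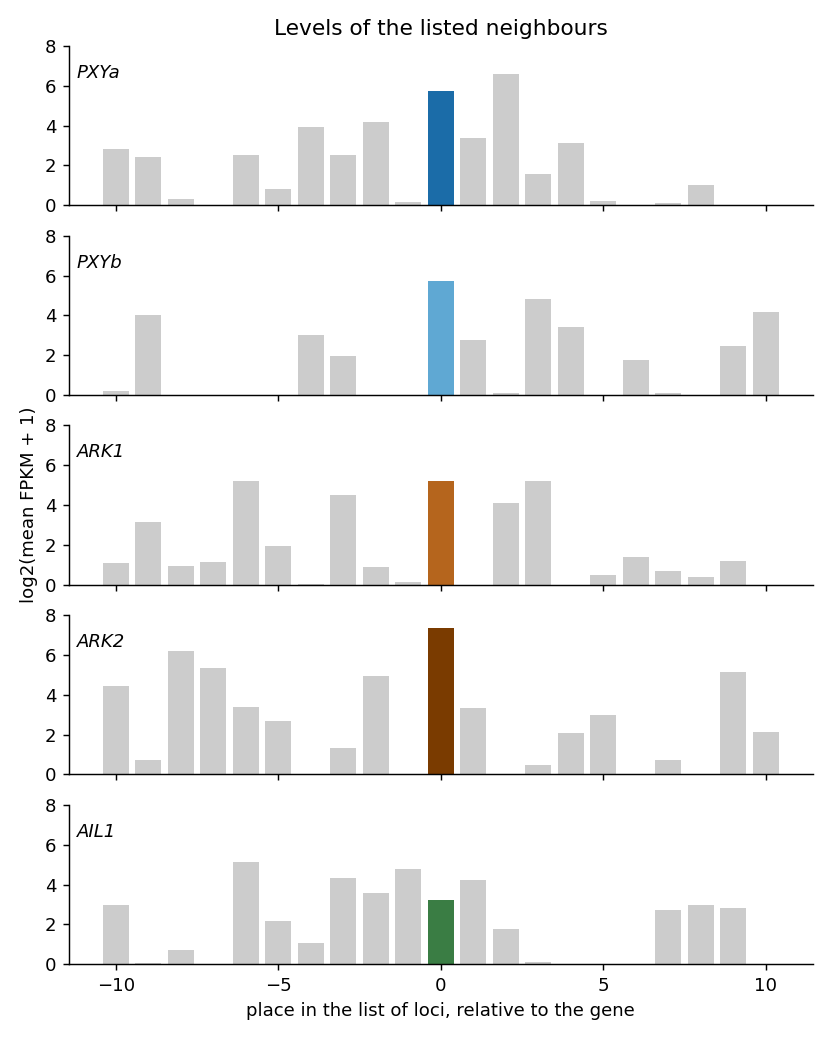
Mean level as log2(FPKM + 1) (y axis) of each gene (coloured bar at 0) and of the 10 listed loci before and after it (grey), by place in the list of locus IDs (x axis). The coloured bar is the highest in the panels of PXYb and ARK2, while 5 grey bars exceed AIL1.

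Each gene had other loci of like level among the 36385 listed. Counting loci within 0.1 of a gene on the log2(FPKM + 1) scale in both libraries, 98 loci resembled PXYa, 56 PXYb, 100 ARK1, 30 ARK2 and 109 AIL1. None is named, because the files pair no ID with a gene name. With 2 libraries of 1 group, such likeness is one of level only.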

How the data were processed

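RNA-seq was made from 2 libraries. The deposited FPKM, 1 value per transcript ID, were computed by the authors, per the file headers. HISAT2 2.1.0 and Bowtie2 2.2.3 are named in the submitters' processing notes, without their roles. Not given in the sources used here are the quantifying program, the build, the annotation and any filter. Each file ends at line 65536, so ranks and shares are over the listed transcripts only.

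FPKM were used as deposited and summed per locus (Python 3.11.15, pandas 2.3.3). The 5 genes, their transcripts and the thresholds were chosen with earlier results of these data known. Named were the 5 genes and their transcripts; other loci were to be named only with a reference name. Pathway and cell type lists could not be matched to IDs, so the tissue was not checked by markers. No test was made, since 1 group has no contrast.

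Reads were recovered by continued fractions (scipy 1.17.1 for intervals) with a tolerance of 5e-10, or 1e-08 under 5 FPKM, and tested on simulated data. A ratio of whole reads was found for 86.9% of the 12813 loci with 1 transcript and values above 0. With a wrong constant this share was 0.983%, which does not test the length step. Reads with a length were found for 10194 of these loci. ARK2, whose second transcript was at 0, was treated as a locus with 1 transcript. The larger total was 1.14 times the smaller; both totals assume lengths with no common factor. Whether 1 read means a pair is unknown. This step was added after the data were seen. Alternatives were scaling, detection minimum, fold, pseudocount, minimum level and leaving out a replicate.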

Additional observations from a re-analysis of the deposited data

How the results depend on the processing

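Under both scalings the mean levels of the 5 genes moved by less than their spread, which is nearly given, since the scaling was split evenly between the libraries. Scaling cannot move a ratio of genes within a library, and the leading transcript holds 100% of each locus. A mean of 2 libraries always stays within the SD when 1 is left out, so these say nothing about stability. A place in the list is not such a mean. Without replicate 1, ARK2 moved from above 98.862% of loci to above 98.807%, beyond its SD of 0.0525. All 5 loci were detected under both scalings, at 0.1 and 5 FPKM and in either library alone. A share over all listed loci was taken only at 1 FPKM in both libraries (56.5%). The counts at the other settings thus only describe these genes. Without replicate 1 or replicate 2, the PXYa to PXYb ratio was 1.17 or 0.905, on different sides of 1, and ARK2 stood above 98.8% to 98.9% of loci. Ranked among only loci at 1 FPKM or more in both libraries, PXYa stood above 90.8%, PXYb above 90.5%, ARK1 above 85.4%, ARK2 above 98.0% and AIL1 above 41.2%, because low loci are then not counted. The number of genes apart was 0 at each fold, minimum level, pseudocount and scaling tried. By the counting interval, an alternative chosen after seeing the data, it was 4. Beside these counts stand 5.03% of expressed loci at 2-fold and 33.5% of recovered loci by the interval. No share was taken at the other settings. The count by the interval stayed 4 under both scalings. It was also 4 with reads doubled, but doubling only narrows the intervals, so the count could not have fallen. Fewer reads for each gene were not tried. No paired analysis was possible because both libraries belong to 1 group. Replicates in 1 group of 2 cannot show whether a difference between libraries is technical.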
